A study of Drosophila melanogaster with 8 samples.

Results

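DNA replication and mitosis genes of the larval fly heart are described here: 38 genes listed by name, of 13792 genes on the array. They were 19 genes of the replication machinery, 7 genes that control entry into S phase and 12 genes of mitosis. All 38 were found, 36 by their symbol and 2 (BubR1 and geminin) by their locus tag, each with 1 oligonucleotide that matched every annotated transcript of its gene. The array used older names for several of them: mus209 for PCNA, cdc2 for Cdk1, cdc2c for Cdk2, E2f for E2f1, ial for aurB, aur for aurA, RfC40 for RfC4, DNApol-delta for PolD1, DNApol-alpha180 for PolA1 and DNApol-alpha50 for Prim1. The gene of the fourth Mcm subunit is called dpa.

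A dividing cell licenses its origins with the origin recognition complex and the Mcm helicase, copies its DNA with polymerases held by the sliding clamp PCNA, and then enters mitosis when the phosphatase string (stg) activates Cdk1 with its mitotic cyclins. Most tissues of a fly larva grow instead by endocycles, rounds of replication without division, in which S-phase genes are used and mitotic genes are not. Imaginal discs, neuroblasts, hemocyte precursors and the germ line of the larva divide by mitosis.

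RNA was measured on 8 arrays of oligonucleotides, each hybridised with a pair of RNAs that carried the dyes Cy3 and Cy5. Both RNAs of every array came from third-instar larvae of a wild-type strain (yw; Canton S) raised at 25 °C. On 4 arrays the heart, the posterior part of the dorsal vessel, was set against the aorta, its anterior part; each RNA was a pool of 10 individuals cut at the cardiovascular valve. On the other 4 arrays the RNA of the entire dorsal vessel was set against that of sibling whole larvae, in pools of 5 individuals. Each comparison had 4 biological replicates, per the series' design text. Heart was in Cy5 on replicates 1 and 2 and in Cy3 on replicates 3 and 4, whereas dorsal vessel was in Cy3 on replicates 1 and 2 and in Cy5 on replicates 3 and 4. About 100 ng of total RNA per pool was amplified over several rounds, and hand-dissected pieces can hold attached cells. In such bulk RNA, fewer cells of a type and less RNA per cell cannot be told apart.

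The arrays of the 2 comparisons differed in how well they repeated. Over all tested oligonucleotides, r between replicates of the dorsal vessel comparison was 0.81 to 0.89 (log2 ratios). For heart over aorta, r was 0.45 between replicates 1 and 2 and 0.46 between replicates 3 and 4, which share a dye orientation. Between orientations it was 0.03 (replicates 1 and 4), 0.11 (2 and 3), 0.17 (2 and 4) and -0.50 (1 and 3). Genes of other organs differed widely between these arrays: the median log2 ratio of 7 tested salivary gland genes was 3.23, 1.91, -3.08 and 0.15 on replicates 1 to 4, and that of 8 midgut genes was 2.98, 0.43, -3.65 and -2.46. The median of 2 tested testis genes was 2.85, -0.58, -2.34 and 0.12. The part of other tissues in the results below was not tested. Of 11 tested genes of heart and muscle, 6 were higher and 3 lower (svp, Mhc and Mlc1) in dorsal vessel than in whole larva, and 2 were higher (abd-A and how) and 2 lower (tin and pnr) in heart than in aorta. Of all tested oligonucleotides 15.5% were higher and 19.9% lower in dorsal vessel, and 3.58% were higher and 3.63% lower in heart. Hand, a transcription factor of the heart, was higher in dorsal vessel than in whole larva by 5.56 on the log2 scale (SE 0.36, limma adjusted p = 0.000243), and the Hox gene abd-A was higher in heart than in aorta by 1.41 (SE 0.09, adjusted p = 0.00659). Pericardin (prc), a heart matrix protein, was not above background on any array.

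Most members gave dim spots. An oligonucleotide counted as detected above a level set by negative and empty spots, 2.54 to 5.16 relative fluorescence units (RFU), and it was tested where 2 or more arrays of a comparison detected it in 1 RNA or both. In each comparison 24 of 38 members were tested, as were 7324 (heart over aorta) and 7590 (dorsal vessel over whole larva) of all 14450 oligonucleotides. The members tested in both numbered 22. Mcm5 and PolD1, the catalytic subunit of polymerase delta, were tested for heart over aorta alone, and the mitotic cyclins CycA and CycB3 for dorsal vessel over whole larva alone.

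Tested in neither comparison were 12 members. Among them were the origin recognition subunits Orc1, Orc2 and Orc6, the helicase subunits Mcm2, dpa and Mcm6, and PolA1 and Prim1 of the polymerase that primes new strands. The others were mitotic: aurA, a kinase of the spindle poles, BubR1 of the spindle checkpoint, the spindle motor Klp61F and the topoisomerase Top2, which untangles sister chromatids. BubR1, Mcm2, Orc6, PolA1, Prim1, Top2 and dpa, 7 in all, were detected on no array in any RNA, so these arrays set no level for them. At the other end, 12 members were detected on all 4 arrays in every RNA: PCNA, Mcm3, RfC3, RfC4, geminin, Cdk2, E2f1, dap, Cdk1, stg, polo and aurB.

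The heart was set against the aorta to ask which genes differ along the organ. PCNA, Mcm3, RfC4 and geminin of the replication machinery and Cdk1, the kinase that drives mitosis, were lower in heart, by 1.72-fold to 2.66-fold. No member was higher. These 5 of 24 tested members passed an adjusted p of 0.05 in a limma fit of all 8 arrays with a dye term for each comparison. In the same fit 3.63% of all tested oligonucleotides were lower in heart, 3.58% higher and 7.21% either. When only the 4 heart and aorta arrays were fitted, 0.0956% of oligonucleotides and 0 members passed, with an unadjusted p below 0.05 for 11 members and for 22.1% of all oligonucleotides. With a dye term shared by both comparisons, 1.98% of oligonucleotides and 0 members passed, and with no dye term 1.34% and 0 members (10 members at an unadjusted p below 0.05 in each, beside 18.7% and 15.2% of all oligonucleotides).

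**Figure D1:**
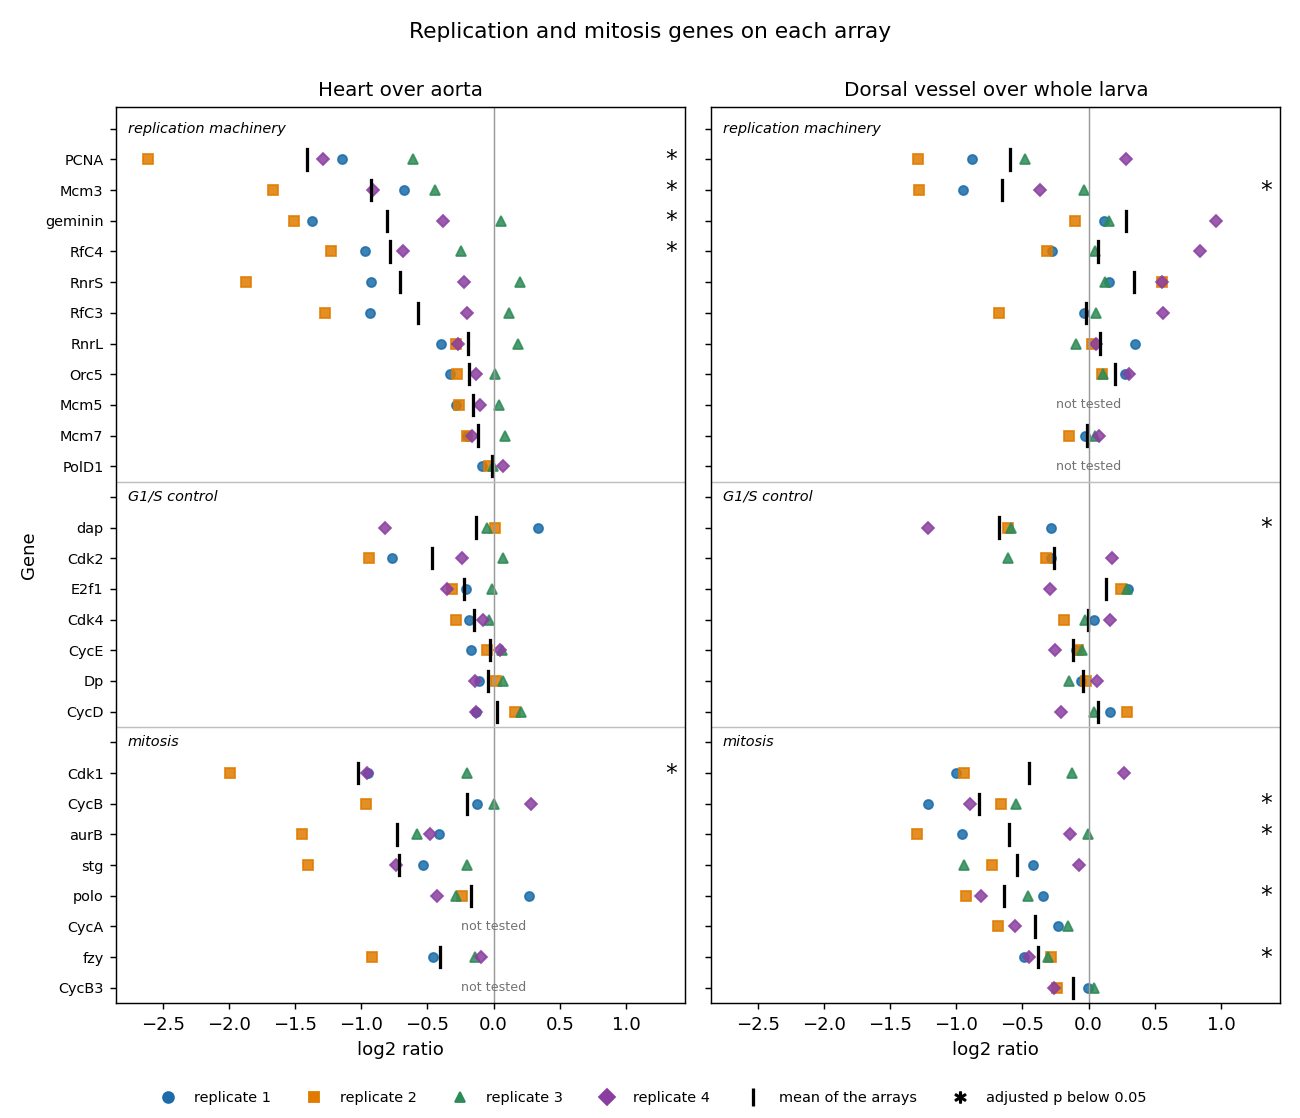
Log2 ratio (x axis) of each tested gene (rows, grouped as replication machinery, G1/S control and mitosis) on each of the 4 arrays of a comparison, heart over aorta at left and dorsal vessel over whole larva at right. Points are replicates, bars their mean and asterisks an adjusted p below 0.05 in the fit of all 8 arrays. The heart ratios of replicate 2 lie farthest left for 13 of 24 genes, a count not made over all oligonucleotides. The means of the mitosis genes lie left of 0 in dorsal vessel.

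PCNA, the clamp that holds polymerases on DNA, gave 29.9, 18.4, 20.9 and 19.4 RFU in heart on replicates 1 to 4, against 66.1, 112, 31.8 and 47.2 RFU in aorta. Every heart signal was below every aorta signal, and the aorta of replicate 2 stood highest. Signals were normalised within each array and not scaled between arrays. Overlap or separation of the groups, here and below, is therefore descriptive only, and it was not counted over all oligonucleotides. The log2 ratios were -1.14, -2.61, -0.61 and -1.29, or -1.41 in the fit (SE 0.27, n = 4 arrays, adjusted p = 0.037), which is 2.66-fold lower in heart.

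Mcm3 is a subunit of the replicative helicase. It gave 19.6, 14.9, 14.8 and 16.3 RFU in heart, against 31.3, 47.4, 20.2 and 30.6 RFU in aorta, and the groups did not overlap. Its log2 ratios were -0.68, -1.66, -0.44 and -0.91 (fit -0.92, SE 0.18, n = 4, adjusted p = 0.039), 1.90-fold lower in heart. Among the other tested helicase subunits, Mcm5 had a fitted log2 ratio of -0.15 (adjusted p = 0.28) and Mcm7 of -0.12 (adjusted p = 0.40). Both were dim, with mean signals of 3.22 and 3.66 RFU in heart and 3.56 and 3.96 RFU in aorta. Log2 ratios of such dim spots understate the change, so a difference from Mcm3 cannot be read. Mcm5 was not well above background in heart on any array, and no minimum fold is given, as it did not pass.

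RfC4 is a subunit of replication factor C, which loads PCNA onto DNA. It gave 7.72, 8.75, 8.17 and 7.81 RFU in heart, against 15.1, 20.5, 9.67 and 12.5 RFU in aorta. Heart signals were nearly even, and all aorta signals lay above them. The log2 ratios were -0.97, -1.23, -0.24 and -0.68 (fit -0.78, SE 0.14, n = 4, adjusted p = 0.034). Its partner RfC3 had log2 ratios of -0.93, -1.28, 0.12 and -0.20, with a fitted value of -0.57 that did not pass (adjusted p = 0.066). Both subunits were lowest on replicates 1 and 2.

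Geminin, an inhibitor of origin licensing, differed between the dye orientations. It gave 12.2, 12.3, 18.1 and 12.6 RFU in heart, against 31.5, 35, 17.3 and 16.4 RFU in aorta, so the groups overlapped. The log2 ratio averaged -1.44 with heart in Cy5 (replicates 1 and 2) and -0.16 with heart in Cy3 (replicates 3 and 4). The fitted value was -0.80 (SE 0.14, adjusted p = 0.033), whereas the SD over the 4 arrays was 0.76. The dye term takes up the difference between the orientations, which this standard error therefore leaves out.

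The enzyme subunits of ribonucleotide reductase, which makes the precursors of DNA, did not pass: RnrS had log2 ratios of -0.93, -1.87, 0.20 and -0.22 (fit -0.70, adjusted p = 0.070) and RnrL had a fitted value of -0.19 (adjusted p = 0.34). Nor did the origin recognition subunit Orc5 (-0.18, adjusted p = 0.20) or PolD1 (-0.01, adjusted p = 0.95). RnrL, Orc5 and PolD1 were dim too, with mean heart signals of 3.86, 4.07 and 3.66 RFU. Over all 11 tested genes of the replication machinery the median log2 ratio was -0.57, all 11 were negative, and the median on replicates 1 to 4 was -0.68, -1.23, 0.04 and -0.22. The median of all tested oligonucleotides was -0.0046.

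**Figure D2:**
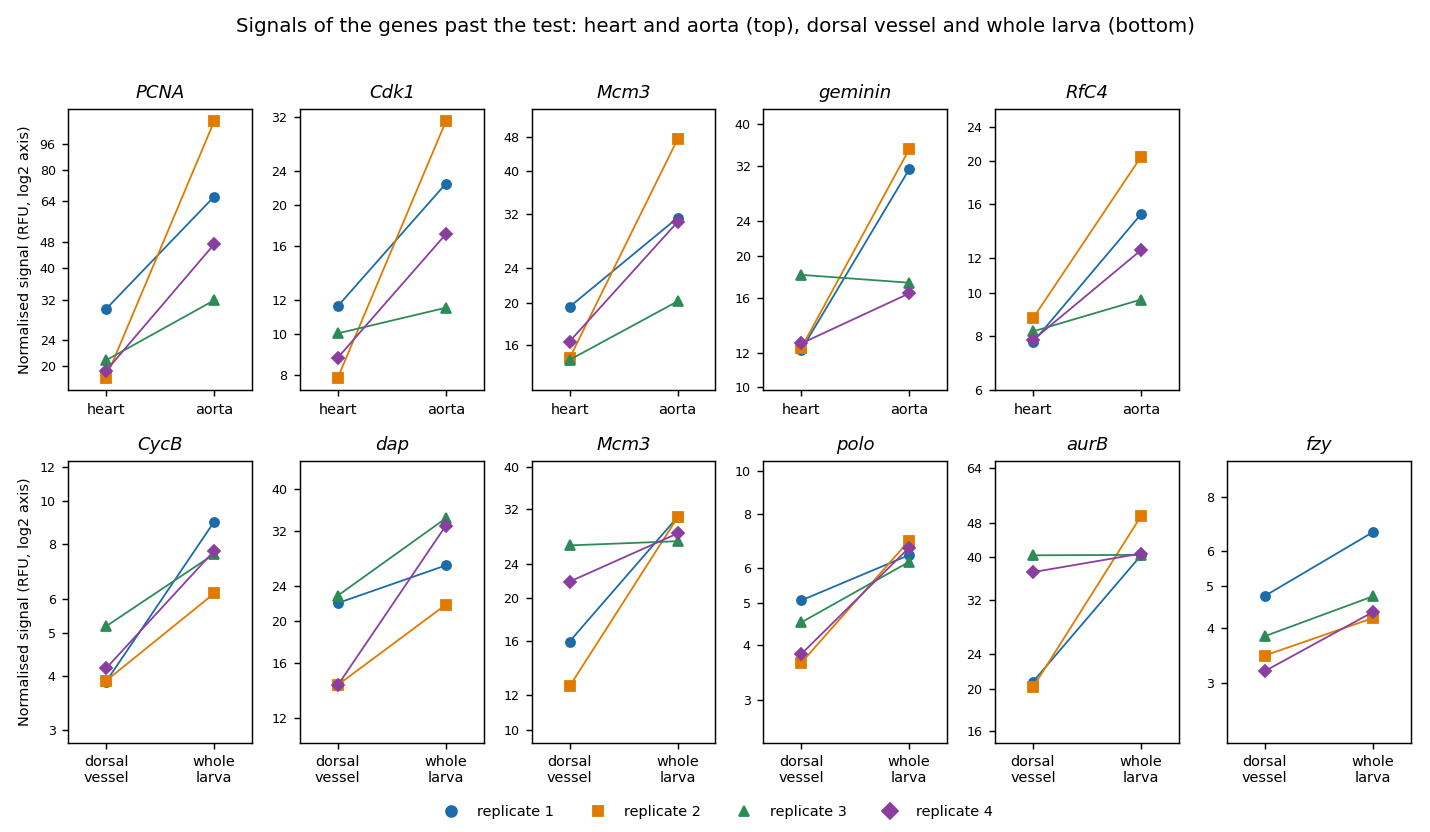
Normalised signal in RFU (y axis, log2 scale, differing between panels) of the genes past the test, in heart and aorta for the 5 genes of the top row and in dorsal vessel and whole larva for the 6 genes of the bottom row. Lines join the RNAs of 1 array, and signals are not scaled between arrays. Heart signals of PCNA, Mcm3 and RfC4 all lie below the aorta signals. In dorsal vessel, aurB lies near 20 RFU on replicates 1 and 2 (20.8 and 20.2) and near its whole-larva signal on replicates 3 and 4.

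None of the 7 genes that control the step from G1 to S phase passed for heart over aorta, and their median log2 ratio was -0.13. Cdk2, the kinase partner of CycE, came nearest, with log2 ratios of -0.76, -0.94, 0.07 and -0.24 (fit -0.47, SE 0.13, adjusted p = 0.087). E2f1, the transcription factor of S-phase genes, had log2 ratios of -0.21, -0.31, -0.01 and -0.35 (adjusted p = 0.30), and its DNA-binding partner Dp had -0.11, 0.02, 0.07 and -0.14 (adjusted p = 0.85). The ratios of both were small on every array, but Dp was dim, with a mean of 3.72 RFU in heart. Dacapo (dap), which inhibits CycE with Cdk2, had log2 ratios of 0.34, 0.01, -0.05 and -0.82, with opposite signs among replicates (fit -0.13, adjusted p = 0.72). Cdk4 had log2 ratios of -0.18, -0.28, -0.04 and -0.08 (adjusted p = 0.31) and was not well above background in heart on any array. CycE was likewise not well above background in heart, and its log2 ratios of -0.17, -0.05, 0.06 and 0.05 differed in sign (adjusted p = 0.89). No minimum fold is given for either gene, as neither passed. The fitted log2 ratio of CycD, the cyclin of Cdk4, was 0.03 (adjusted p = 0.93).

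Of the mitosis genes 6 were tested for heart over aorta, and all 6 were negative, with a median log2 ratio of -0.56. Cdk1 gave 11.6, 7.88, 10.0 and 8.78 RFU in heart, against 22.4, 31.3, 11.5 and 17.1 RFU in aorta. The heart signal was the lower of the pair on every array, but the groups overlapped, as the aorta of replicate 3 lay just under the heart of replicate 1. Its log2 ratios of -0.95, -1.99, -0.20 and -0.96 gave a fit of -1.02 (SE 0.20, n = 4, adjusted p = 0.040), 2.03-fold lower in heart.

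The remaining mitosis genes did not pass. The kinase aurB, which acts at centromeres and in cytokinesis, had log2 ratios of -0.41, -1.44, -0.58 and -0.48 (fit -0.73, adjusted p = 0.056). Stg, the Cdc25 phosphatase that activates Cdk1, had -0.53, -1.40, -0.20 and -0.73 (fit -0.72, adjusted p = 0.087). Fzy, which activates the anaphase-promoting complex, had -0.46, -0.92, -0.14 and -0.09 (fit -0.40, adjusted p = 0.062). All 3 were negative on every array and lowest on replicate 2. Polo, a kinase of the spindle and centrosome, had log2 ratios of 0.27, -0.24, -0.28 and -0.43 (adjusted p = 0.51), and the mitotic cyclin CycB a fitted value of -0.20 (adjusted p = 0.54). CycA and CycB3 were too dim in both heart and aorta to be tested.

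Across all classes, 23 of 24 tested members had a negative fitted log2 ratio for heart over aorta, against 50.8% of all tested oligonucleotides. On all 4 arrays 9 of 24 were lower in heart, against 11.4% of all. The size differed between arrays: the lowest ratio of a member fell on replicate 2 in 13 cases, on replicate 1 in 7, on replicate 4 in 4 and on replicate 3 in 0. In 22 of 24 members the ratio was lower with heart in Cy5 than with heart in Cy3, and 18 were negative in both orientations. The counts of lowest ratios and those by dye orientation were not made over all oligonucleotides, so they are not read as particular to the members. Dye orientation and replicate pools cannot be told apart here, since each orientation holds its own pools. Without replicate 1, 3 members passed (PCNA, Mcm3 and aurB), and without replicate 2, 3 or 4, 0 passed. Of all 7324 tested oligonucleotides, 88, 17, 152 and 155 passed without replicates 1 to 4. With median centring of the arrays, 6 members turned positive, the median of all oligonucleotides was 0.12, and RfC4 and geminin passed.

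**Figure D3:**
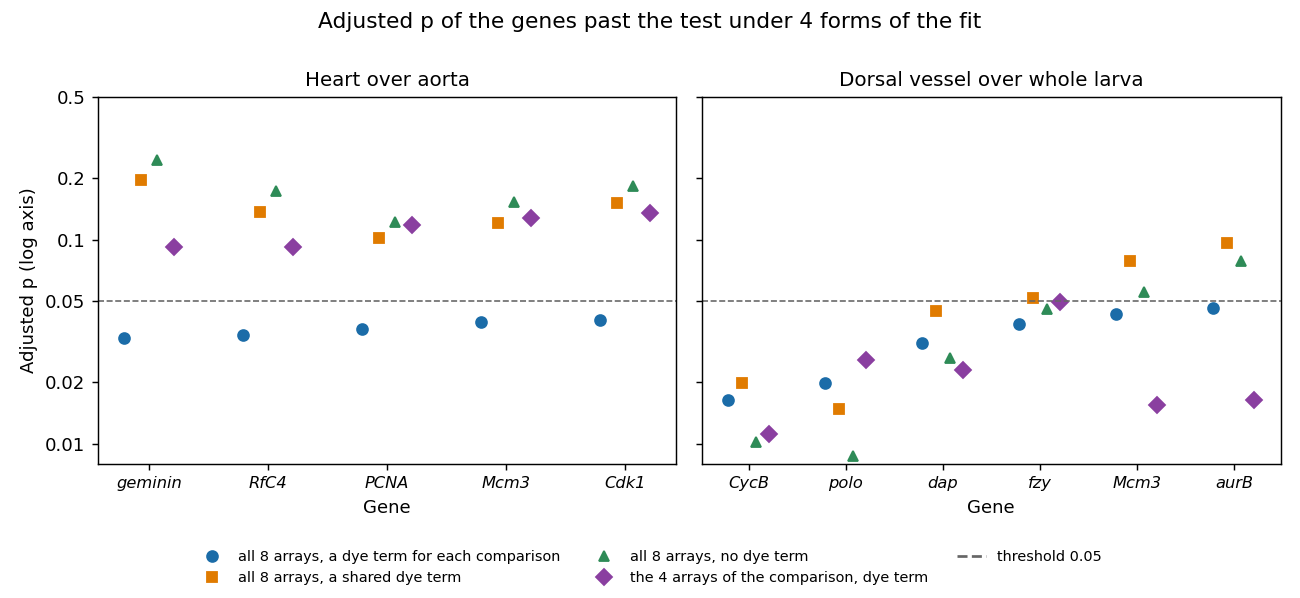
Adjusted p (y axis, log scale) of the genes that passed in the fit of all 8 arrays with a dye term for each comparison, for heart over aorta (left) and dorsal vessel over whole larva (right), under 4 forms of the fit. The dashed line is the threshold of 0.05; the 5 heart genes lie above it in the other 3 fits, and CycB, polo and dap of the dorsal vessel lie below it in all 4.

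Other genes of the same processes were counted from lists of the pathway, in the fit of all 8 arrays, where 3.63% of all oligonucleotides were lower in heart. Of 25 tested further replication genes, 4 were lower in heart and 0 higher, with a median log2 ratio of -0.14. These were RPA2 (-0.76, adjusted p = 0.016), which coats single-stranded DNA, PolD2 (-0.41, adjusted p = 0.035) of polymerase delta, dUTPase (-1.10, adjusted p = 0.045), which keeps uracil out of DNA, and Slbp (-0.51, adjusted p = 0.0495), which binds histone mRNA. The median of all 25 on replicates 1 to 4 was -0.47, -0.40, 0.08 and -0.04, and none of the 25 had its lowest ratio on replicate 3 or 4. That last count was not made over all oligonucleotides. Among 28 tested further mitosis genes, 1 was lower in heart, the checkpoint gene Bub3 (-0.77, adjusted p = 0.015), with 0 higher and a median of -0.13. The share of these mitosis genes called was near that of the array. Of 14 tested further genes of cycle control and the endocycle, 0 passed, with a median of -0.06. With only the 4 heart and aorta arrays 0 genes of these lists passed, and with a shared dye term or none 0 replication genes and 1 mitosis gene did.

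Markers of other cells were read beside these ratios. Of all tested oligonucleotides 3.58% were higher and 3.63% lower in heart. Of 13 tested lymph gland and hemocyte genes, 7 were higher in heart, among them the crystal cell gene PPO2 (2.37, adjusted p = 0.00341). The other 6 did not pass, and 4 of the 13 had negative fitted log2 ratios, so the list did not move as a whole. The summed signal of the list of 14 was 590 to 1312 RFU in heart, against 212 to 333 RFU in aorta. Only lz of that list was detected on no array. Of 12 imaginal disc genes 2 were tested and wg was lower in heart, where it was not well above background (at least 1.30-fold, adjusted p = 0.037). This bound, like those below, covers no measurement error. The summed disc signal was 40.6 to 50.8 RFU in heart, against 40.1 to 59.8 RFU in aorta, and Dll, eya, hh, nub, rn and tsh were detected on no array. Of 10 neural genes 4 were tested and 0 passed, with sums of 40.01 to 56.1 RFU in heart and 41.2 to 54.6 RFU in aorta; the neuroblast genes ase, dpn, mira and wor were detected on no array. The part of these cells in the lower ratios of PCNA, Mcm3, RfC4, geminin and Cdk1 was not tested.

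The entire dorsal vessel was set against whole larvae to ask which genes the organ holds in larger or smaller amounts than the animal as a whole. CycB, polo, fzy and aurB of mitosis, dap of G1/S control and Mcm3 of the replication machinery were lower, by 1.30-fold to 1.78-fold, and 0 members were higher. They were 4 of 8 tested mitosis genes, 1 of 7 G1/S genes and 1 of 9 genes of the replication machinery. These 6 of 24 tested members stand beside 19.9% of all tested oligonucleotides that were lower in dorsal vessel and 15.5% that were higher (35.4% either), so the share of members called was near that of the array as a whole. With only the 4 arrays of this comparison, the same 6 passed along with Cdk1 and PCNA, beside 23% of all oligonucleotides lower. With a shared dye term, 3 passed (CycB, polo and dap), beside 21% of all oligonucleotides lower.

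CycB, a mitotic cyclin that partners Cdk1, gave 3.87, 3.89, 5.18 and 4.15 RFU in dorsal vessel on replicates 1 to 4, against 8.99, 6.16, 7.58 and 7.71 RFU in whole larva. Every dorsal vessel signal was below every whole-larva signal. The log2 ratios were -1.21, -0.66, -0.55 and -0.89 (fit -0.83, SE 0.18, n = 4, adjusted p = 0.016), 1.78-fold lower in dorsal vessel. Its spot lay in a block that was displaced on replicates 1 and 2 and was moved back; without the block on those arrays the log2 ratio was -0.72 and did not pass (adjusted p = 0.10), and as deposited it was -0.25 (adjusted p = 0.38).

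Polo gave 5.07, 3.65, 4.51 and 3.82 RFU in dorsal vessel, against 6.43, 6.94, 6.21 and 6.69 RFU in whole larva, again with no overlap. Its log2 ratios were -0.34, -0.93, -0.46 and -0.81 (fit -0.64, SE 0.15, n = 4, adjusted p = 0.020), and averaged -0.63 with dorsal vessel in Cy5 and -0.64 with it in Cy3. Fzy gave 4.75, 3.47, 3.84 and 3.20 RFU in dorsal vessel, against 6.64, 4.22, 4.74 and 4.36 RFU in whole larva. The fzy groups overlapped, but the dorsal vessel was lower on each array, with log2 ratios of -0.48, -0.28, -0.30 and -0.45 (fit -0.38, SE 0.11, n = 4, adjusted p = 0.039).

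The low value of aurB rested on the arrays with dorsal vessel in Cy3. It gave 20.8, 20.2, 40.4 and 37.0 RFU in dorsal vessel, against 40.4, 49.7, 40.5 and 40.8 RFU in whole larva. The log2 ratio averaged -1.13 with dorsal vessel in Cy3 (replicates 1 and 2) and -0.07 with it in Cy5 (replicates 3 and 4), and the fit gave -0.60 (SE 0.18, n = 4, adjusted p = 0.046). The whole-larva signal was even, and the dorsal vessel signal formed a low and a high pair.

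CycA, which is needed for entry into mitosis, had log2 ratios of -0.23, -0.69, -0.16 and -0.56, negative on every array. It was not well above background in dorsal vessel on any array and did not pass (adjusted p = 0.079), so no minimum fold is given. Nor did stg, with a fitted log2 ratio of -0.54 (adjusted p = 0.095), Cdk1 with -0.45 (adjusted p = 0.14) or CycB3 with -0.11 (adjusted p = 0.41). Cdk1 averaged -0.97 with dorsal vessel in Cy3 and 0.07 with it in Cy5. All 8 tested mitosis genes were negative and 6 of them were lower on all 4 arrays (35.5% of all oligonucleotides were). Their median was -0.49 in the fit and -0.45, -0.71, -0.23 and -0.35 on replicates 1 to 4, against -0.05 over all tested oligonucleotides.

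Dap was the only G1/S gene that passed for dorsal vessel over whole larva. It gave 21.9, 14.3, 22.8 and 14.2 RFU in dorsal vessel, against 26.7, 21.7, 34.3 and 33 RFU in whole larva. The ranges overlapped slightly, and the log2 ratios were -0.29, -0.61, -0.59 and -1.21 (fit -0.67, SE 0.18, n = 4, adjusted p = 0.031), 1.60-fold lower in dorsal vessel. The ratio was lowest on replicate 4.

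None of the other G1/S genes passed for dorsal vessel over whole larva. All but E2f1 were dim, with mean dorsal vessel signals of 3.30 (CycE) to 4.75 RFU (Cdk2). Log2 ratios of such dim spots understate the change, so evenness cannot be read from them. Cdk2 had log2 ratios of -0.29, -0.32, -0.61 and 0.17 (adjusted p = 0.19). E2f1 had 0.30, 0.25, 0.29 and -0.29 (adjusted p = 0.40), with replicate 4 apart from the others. CycD had 0.16, 0.29, 0.04 and -0.21 (adjusted p = 0.61). CycE had -0.09, -0.08, -0.05 and -0.25 (adjusted p = 0.27) and Dp a fitted value of -0.04 (adjusted p = 0.72). CycE, Dp and Cdk4 were not well above background in dorsal vessel on any array and did not pass, so no minimum fold is given for them. The median of the 7 was -0.04.

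Mcm3 was the only member past the test in both comparisons. It gave 15.9, 12.6, 26.4 and 21.8 RFU in dorsal vessel, against 30.7, 30.6, 27.0 and 28.1 RFU in whole larva. The groups did not overlap, yet the dorsal vessel of replicate 3 almost reached its whole larva. The log2 ratios of -0.95, -1.28, -0.03 and -0.37 averaged -1.11 with dorsal vessel in Cy3 and -0.20 with it in Cy5 (fit -0.66, SE 0.19, n = 4, adjusted p = 0.043).

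The rest of the replication machinery did not pass for dorsal vessel over whole larva. PCNA had log2 ratios of -0.88, -1.29, -0.48 and 0.29 (fit -0.59, SE 0.29, adjusted p = 0.14). Geminin had 0.12, -0.10, 0.16 and 0.96 (adjusted p = 0.18), Orc5 0.28, 0.10, 0.11 and 0.30 (adjusted p = 0.12), and RnrS 0.15, 0.55, 0.12 and 0.56 (adjusted p = 0.19). Orc5 and RnrS were thus higher in dorsal vessel on every array without reaching the threshold, while PCNA and geminin each had the opposite sign on 1 array. No share of all oligonucleotides is given beside this. Orc5 was dim, with means of 4.18 RFU in dorsal vessel and 3.63 RFU in whole larva. RnrS lay, like CycB, in the block that was moved back on replicates 1 and 2. RfC4 (0.07), RfC3 (-0.02), RnrL (0.08) and Mcm7 (-0.01) had fitted log2 ratios near 0. For RfC4 and RfC3 this was a mean of opposite signs. RfC4 averaged 0.45 with dorsal vessel in Cy5 and -0.30 with it in Cy3, and RfC3 averaged 0.31 and -0.35. Mcm7 was dim and was detected in dorsal vessel on only 1 array. The class median over 9 tested genes was 0.07, and -0.03, -0.15, 0.05 and 0.30 on replicates 1 to 4.

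Dorsal vessel calls were sensitive to single arrays: without replicate 1, 2, 3 or 4, the members lower past the test numbered 1 (polo), 0, 3 (CycB, polo and dap) and 1 (Cdk2). Of all 7590 tested oligonucleotides, 829, 628, 1256 and 1154 were lower in these fits. Without replicate 3, geminin was higher, beside 1371 of all oligonucleotides. With median centring 0 members were lower and geminin was higher, beside 945 of all oligonucleotides lower and 720 higher. On all 4 arrays 9 of 24 members were lower in dorsal vessel, against 35.5% of all tested oligonucleotides. Negative fitted log2 ratios were found for 17 of 24 members, against 53.3% of all. Set side by side, 15 of the 22 members tested in both comparisons had negative fitted log2 ratios in both. As 23 of 24 were negative for heart over aorta, this count mostly repeats the dorsal vessel signs. It was not made over all oligonucleotides. The comparisons share no RNA pool or array, but were fitted with a shared estimate of the spread.

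**Figure D4:**
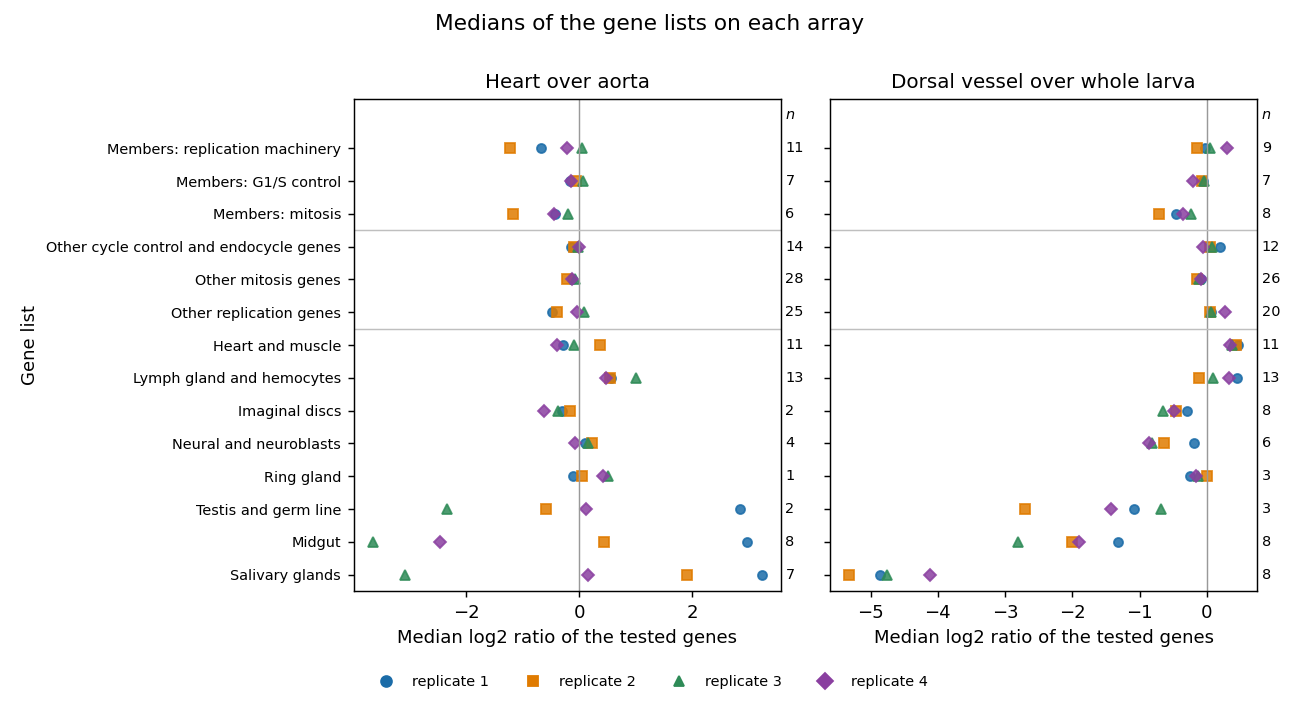
Median log2 ratio of the tested genes of each list (rows, with the number tested at right) on each of the 4 arrays, heart over aorta at left and dorsal vessel over whole larva at right; the x axes differ. Replication machinery medians spread between -1.23 and 0.04 for heart over aorta, much less than those of salivary gland and midgut genes, and mitosis medians lie below 0 on all 4 arrays of both comparisons.

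Further mitosis genes gave a median of -0.04 for dorsal vessel over whole larva: of 26 tested, 5 were lower and 0 higher, beside 19.9% of all oligonucleotides lower. Lower were tacc (-0.57, adjusted p = 0.00688), which acts on centrosomal microtubules, vih (-1.10, adjusted p = 0.016), the ubiquitin-conjugating enzyme of the anaphase-promoting complex, the spindle pole gene asp (-0.49, adjusted p = 0.018) and the microtubule-depolymerising kinesin Klp10A (-0.69, adjusted p = 0.020), as well as the kinetochore gene Spc105R. Of 20 tested further replication genes 3 were higher and 0 lower, beside 15.5% of all higher, with a median of 0.07. Those higher included the histone chaperone asf1 (0.40, adjusted p = 0.039) and the helicase cofactor Psf2 (0.37, adjusted p = 0.043). Among 12 tested genes of cycle control and the endocycle, Cdk7 (0.52, adjusted p = 0.011) and CycH (0.42, adjusted p = 0.016), partners in the Cdk-activating kinase, were higher. CycG (-0.96, adjusted p = 0.00575) and trbl (-0.33, adjusted p = 0.036), which promotes the loss of String protein, were lower. These 4 of 12 stand beside 35.4% of all called in either direction, a share near that of the array. In either direction, the 5 of 26 mitosis genes and 3 of 20 replication genes called were smaller shares than 35.4%.

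Markers of other tissues were read here too, beside 15.5% of all tested oligonucleotides higher and 19.9% lower in dorsal vessel. All 8 tested imaginal disc genes were negative on every array and 5 were lower in dorsal vessel, among them en (at least 3.40-fold, adjusted p = 0.0037), salm (at least 3.20-fold, adjusted p = 0.00361) and vg (at least 2.02-fold, adjusted p = 0.00214), each not well above background in dorsal vessel. The disc list summed to 32.8 to 52.6 RFU in dorsal vessel, against 53.7 to 71.1 RFU in whole larva, and Dll, eya, rn and tsh were detected on no array. Of 6 tested neural genes, 4 were lower (Syt1, elav, repo and nSyb) and 2 higher (insc and pros), with sums of 28.5 to 66.3 RFU in dorsal vessel and 36.3 to 52.5 RFU in whole larva; ase, dpn and wor were detected on no array. Of 13 tested lymph gland and hemocyte genes, 4 were higher (kn, srp, odd and dome) and 2 lower (PPO2 and Antp), with sums of 272 to 381 RFU in dorsal vessel and 299 to 617 RFU in whole larva. Testis genes were lower in 1 of 3 tested, and the germ line gene vas was detected on no array. The part of these tissues in the lower ratios of CycB, polo, fzy, aurB, dap and Mcm3 was not tested.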

How the data were processed

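Spot intensities of both dyes, foreground and local background in RFU, were used as deposited per the file headers; 6 to 112 spots per array carried a mark of the scanner software. The authors' deposited value table holds normalised log2 ratios, listed with limma in the submitters' processing notes (its version is not given in the sources used here). Set against the scanner ratios (absolute r 0.923 to 0.989) it gave aorta over heart, and its signs were turned for use as an alternative.

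Intensities were scaled by 36.9 to a 16-bit range, corrected with normexp (offset 50, which is 1.35 RFU, so that log2 ratios of dim spots understate the change) and normalised by loess (span 0.3, 4 iterations) in limma 3.58.1 under R 4.3.3. One block of spots, displaced on heart replicate 3 and on dorsal vessel replicates 1 and 2 (r of its signals with the other arrays -0.024, 0.138 and 0.153 in place and 0.978, 0.925 and 0.964 moved back), was moved back, a choice made after the displacement was seen. It holds PolA1, RnrS, CycE and CycB.

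One limma model took all 8 arrays, with a dye term for each comparison and array weights by comparison (4 residual degrees of freedom). In the heart over aorta test the weights were 1.09 for heart and aorta arrays and 0.92 for dorsal vessel and whole-larva arrays. The arrays that repeated less well were thus not weighted down, and their standard errors rest on a spread shared with the other arrays. Benjamini-Hochberg adjustment was over all tested oligonucleotides. Tested on simulated data, this fit called more unchanged oligonucleotides than its threshold allows, most so for heart over aorta, while the fit of the 4 own arrays stayed near or under it but found fewer changed ones. The simulated noise was independent between arrays and held no dye effect, so it cannot rank the dye terms for the real arrays. Values on every array are given for members past the test and for the 5 with the smallest adjusted p in each class and comparison. Members, classes and lists were chosen with earlier results of these data known. The number of arrays limits the precision. The files cite annotation releases older than the reference, so no coordinates are given.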

Additional observations from a re-analysis of the deposited data

Results flagged for a closer look

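In 3 of 48 sets of 4 replicate ratios, 1 array stood far from the others by Dixon's criterion for 4 values; chance alone flags about 1 in 20 sets. For heart over aorta, aurB had a log2 ratio of -1.44 on replicate 2, with the nearest other value at -0.58. For Mcm7 in the same comparison, replicate 3 gave 0.087, with the nearest other value at -0.16. For dorsal vessel over whole larva, E2f1 had a log2 ratio of -0.29 on replicate 4, with the nearest other value at 0.25. Neither Mcm7 nor E2f1 passed the test in these comparisons. Without replicate 1, aurB passed for heart over aorta (adjusted p = 0.044), and without replicate 2 it did not.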

How the results depend on the processing

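For the members, 17 other settings were tried; of 790 values of single members, 663 kept their sign and side of the threshold, 86 lost a call, 12 gained one and 29 turned sign. No called member turned sign. Leaving out a replicate leaves 1 array in a dye orientation, taken to vary like the others. The causes were not tested. No paired analysis was possible because the ratio within an array already pairs its RNAs and same-numbered arrays of the comparisons hold different pools.

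For heart over aorta, 528 oligonucleotides passed, but 7 with the 4 own arrays, 145 with a shared dye term, 98 with no dye term, 268 with an offset of 50 RFU, 174 with median centring (19.5% of them lower, against 50.4%) and 17 to 155 without 1 replicate. Members lower past the test numbered 5, but 0 with the own arrays, a shared dye term, no dye term or the 50 RFU offset, 2 with median centring or no filter, 8 with detection on all 4 arrays and 0 to 3 without 1 replicate. The G1/S median of -0.13 was -0.010 with the 50 RFU offset, 0.024 with median centring and -0.17 to -0.025 without 1 replicate; the mitosis median of -0.56 was -0.10 with the 50 RFU offset. Signs turned with median centring, to 0.012 for CycE, 0.024 for Dp, 0.12 for E2f1, 0.19 for dap, 0.022 for polo and 0.020 for PolD1, and with the authors' table, to 0.030 for E2f1 and 0.011 for PolD1. Without 1 replicate, CycD ran from -0.058 to 0.11, CycE from -0.057 to 0.0034, Dp from -0.093 to 0.014, dap from -0.32 to 0.063, CycB from -0.41 to 0.010 and PolD1 from -0.031 to 0.0040.

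For dorsal vessel over whole larva, 2690 oligonucleotides passed, but 1665 with median centring and 925 to 2627 without 1 replicate; the share lower was 56.1% and 44.6% with the 50 RFU offset. Members lower past the test numbered 6, but 3 with a shared dye term, 2 with the 50 RFU offset, 0 with median centring, 1 with no filter and 0 to 3 without 1 replicate. Members higher numbered 0, but 1 with no background correction, the 50 RFU offset or median centring and 0 to 1 without 1 replicate. The G1/S median of -0.04 was -0.26 with detection on all 4 arrays. The mitosis median of -0.49 was -0.73 with no background correction, -0.055 with the 50 RFU offset and -0.72 with the authors' table, settings under which the median of all oligonucleotides was -0.17, 0.00 and -0.13. Signs turned with the authors' table, to 0.0096 for Dp, -0.11 for E2f1 and -0.010 for RfC4; with no background correction, to -0.028 for RfC4; and for RfC3, to 0.018 with the 50 RFU offset and 0.032 with median centring. Without 1 replicate, Cdk4 ran from -0.058 to 0.056, Dp from -0.095 to 0.014, E2f1 from -0.011 to 0.28, Mcm7 from -0.044 to 0.018, RfC3 from -0.18 to 0.14 and RfC4 from -0.12 to 0.27.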
